A study of Mus musculus with 141 samples.

Results

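The genes described here are 6 genes of the mitochondrial ATP synthase, complex V of oxidative phosphorylation (OXPHOS), out of the 36558 genes in the deposited tables. They were taken by name and cover the inhibitor (*Atpif1*), 2 assembly factors (*Atpaf1* and *Atpaf2*) and the 3 genes for subunit c (*Atp5g1*, *Atp5g2* and *Atp5g3*). All 6 were found by Ensembl identifier, and all 6 passed the filter on low counts in every test. Expression was measured by RNA-seq in inguinal white adipose tissue (iWAT), the subcutaneous fat pad, of inbred mice that make up the Hybrid Mouse Diversity Panel (HMDP). Females gave 67 libraries and males 74, over 82 strains, with 1 library per sex and strain, and 59 strains have both.

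The strains fall into families by name. Females comprise 32 BXD strains (recombinant inbred strains of C57BL/6J and DBA/2J), 9 AXB/BXA strains (A/J and C57BL/6J), 21 other inbred strains, 3 CXB strains (BALB/c and C57BL/6) and 2 BXH strains (C57BL/6J and C3H/HeJ). Males comprise 34, 11, 23, 3 and 3 strains of the same families. Every mouse ate chow until 8 weeks of age and then food rich in fat and sucrose (HF/HS) for 8 weeks, and was fasted for 4 h before collection, so no library stands for another diet. Each library carries 1 mouse number, and replicate mice of a strain and sex are not analysed here. One strain is thus the unit of every comparison. The p-values of the sex, strain and sex by family tests rest on the spread left within strains once strain and sex means are taken out. Those of the family tests and of the slopes on marker lists rest on the spread between strains within a sex.

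ATP synthase couples the return of protons through the inner mitochondrial membrane to the making of ATP. Protons pass through Fo, whose rotating part is a ring of identical c subunits, and drive the catalytic head F1. The 3 subunit c genes encode the same mature protein behind different mitochondrial import sequences. *Atpif1* encodes IF1, which binds F1 and blocks ATP hydrolysis when the proton gradient falls, while *Atpaf1* and *Atpaf2* encode chaperones that bind the beta and the alpha subunit of F1 during assembly.

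The libraries held from 6269154 to 78562648 estimated counts. In 3 libraries the summed expression of Y-linked *Uty*, *Kdm5d*, *Eif2s3y* and *Ddx3y* went against the sex label. Labelled female, BXD34/TyJ had 1425 CPM and BXD69/RwwJ 368 CPM, against at most 34.1 CPM in the other 65 female libraries. Labelled male, NZW/LacJ stood at 8.16 CPM, against at least 184.8 CPM in the other 73. BXD34/TyJ was also the shallowest library, with 29.9% of its counts on mitochondrially encoded genes. Of these strains only NZW/LacJ has both libraries. The adipocyte markers *Adipoq*, *Plin1*, *Plin4*, *Cidec* and *Fabp4* summed to at least 3358 CPM in every library.

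The sequences shown next are those that decide how reads of the subunit c genes can be told apart, since the mature protein is the same and the genes differ mainly at silent positions. They are the coding bases of the mature protein of each gene, stop codon included, 5′ to 3′ in the sense of the gene, from the GENCODE M21 transcripts of GRCm38. Capitals mark the 58 positions at which the 3 genes differ, of which 52 are the third base of a codon.

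Atp5g1: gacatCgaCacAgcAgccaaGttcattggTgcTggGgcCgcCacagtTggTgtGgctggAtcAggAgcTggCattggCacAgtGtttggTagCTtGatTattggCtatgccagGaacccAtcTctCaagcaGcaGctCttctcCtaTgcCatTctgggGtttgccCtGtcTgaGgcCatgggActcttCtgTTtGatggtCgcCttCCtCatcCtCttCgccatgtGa
Atp5g2: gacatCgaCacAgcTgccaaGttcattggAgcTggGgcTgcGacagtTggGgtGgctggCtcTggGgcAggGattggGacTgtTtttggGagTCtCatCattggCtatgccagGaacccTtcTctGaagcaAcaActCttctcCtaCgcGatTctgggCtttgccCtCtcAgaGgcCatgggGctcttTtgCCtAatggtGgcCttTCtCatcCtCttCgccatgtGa
Atp5g3: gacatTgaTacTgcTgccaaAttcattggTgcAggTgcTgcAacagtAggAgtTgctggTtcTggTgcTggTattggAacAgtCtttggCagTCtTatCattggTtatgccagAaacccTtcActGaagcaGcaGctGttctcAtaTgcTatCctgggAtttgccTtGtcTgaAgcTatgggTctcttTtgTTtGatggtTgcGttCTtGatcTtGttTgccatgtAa

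Each stretch is split over 2 exons by an intron. They lie within chr11:96073104-96073635 for *Atp5g1*, chr15:102663014-102665166 for *Atp5g2* and chr2:73908593-73909296 for *Atp5g3*, all on the minus strand. *Atp5g1* and *Atp5g2* were identical at 85.1% of these bases, with a longest identical run of 21 bases. *Atp5g3* matched *Atp5g1* at 79.8% and *Atp5g2* at 78.5%, with identical runs of at most 11 and 8 bases. No 31-base word, the unit kallisto matches, was shared between *Atp5g3* and any other gene of the annotation.

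Near copies elsewhere in the genome are closer to *Atp5g1* and *Atp5g2* than the 3 genes are to each other. *Gm10039*, a processed pseudogene (chr11:100361716-100362126, minus strand), differs from the coding sequence of *Atp5g1* by 1 base, G385A counted from the A of the start codon. In the stretch shown that base is G202A, and it is the capital in the copy:

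Gm10039: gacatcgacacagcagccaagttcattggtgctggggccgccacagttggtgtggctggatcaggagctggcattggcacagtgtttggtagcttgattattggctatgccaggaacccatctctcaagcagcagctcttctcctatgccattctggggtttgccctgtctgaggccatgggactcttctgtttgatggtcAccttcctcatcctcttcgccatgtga

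*Gm10175* (chr7:23946646-23947290) and *Gm10231* (chr17:5816200-5816640), both on the minus strand, have no difference from *Atp5g2* over its 441 coding bases. *Gm14117* (chr2:146305547-146306389, plus strand) shares all of its 813 words of 31 bases with *Atpaf1*. The inhibitor gene *Atpif1* shares 405 such words with *Gm12999*, an antisense gene not analysed here. Reads of such copies and of their parent gene can be assigned to either, and values of *Atp5g1*, *Atp5g2* and *Atpaf1* are uncertain to that extent.

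Levels of the 6 genes were compared as TPM, which corrects for transcript length. Over all libraries *Atp5g3* had the highest median, at 546 TPM. The inhibitor *Atpif1* followed with 123.99 TPM, then *Atpaf2* with 61.2, *Atp5g1* with 35.9, *Atpaf1* with 24.4 and *Atp5g2* with 13.6 TPM. All levels and counts in this paragraph leave near copies out, and the place of *Atp5g2* depends on that choice. With its copies added, its median lay above that of *Atpif1* and below that of *Atp5g3*. *Atp5g3* ranged from 90.02 to 853 TPM and *Atpif1* from 35.6 to 298 TPM (both lowest in BXD34/TyJ), yet within a library *Atp5g3* was the higher of the pair in every case. *Atpaf2* exceeded *Atpif1* in 4 libraries, *Atp5g1* exceeded *Atpaf2* in 13, *Atpaf1* exceeded *Atp5g1* in 19 and *Atp5g2* exceeded *Atpaf1* in 4. The F1 subunit *Atp5b*, for scale, had a median of 1259 TPM.

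**Figure D1:**
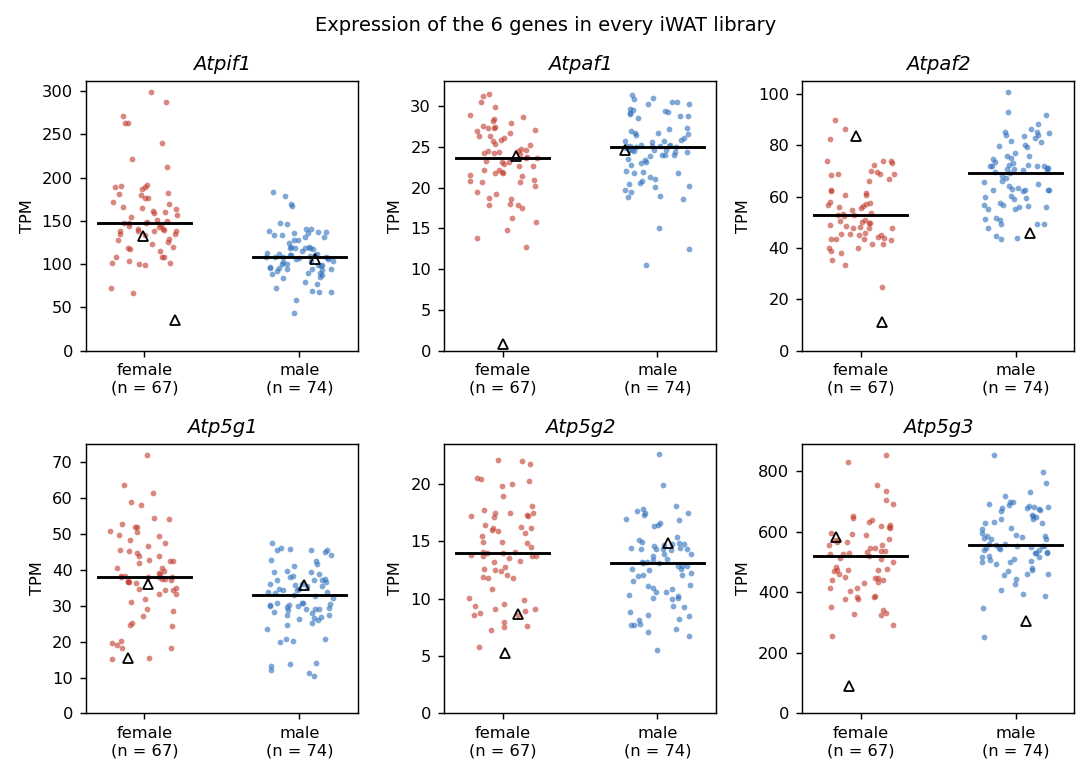
TPM of the 6 genes in each of the 67 female and 74 male libraries, with 1 point per library, a bar at the median and open triangles for the 3 libraries whose Y-linked genes go against their sex label. *Atpif1* reaches 298 TPM in females and 183 TPM in males, and the BXD34/TyJ library labelled female is the lowest for *Atpif1*, *Atpaf1*, *Atpaf2*, *Atp5g2* and *Atp5g3* on this scale. In CPM it is the lowest female for *Atpaf1* alone, and the highest for *Atp5g1* and *Atp5g2*.

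The comparison of the sexes asked which of the 6 genes differ between the sexes within a strain, in the model ~ Strain + Sex. Across the 59 matched strains *Atpif1* and *Atp5g1* were higher in females, *Atpaf1*, *Atpaf2* and *Atp5g3* were lower, and *Atp5g2* did not pass the threshold. An adjusted p under 0.05 was reached by 5 of the 6 genes, against 58.1% of all genes tested. In the direction of higher expression in females the count was 2 of 6, against 28.4% of all genes, and in the other direction 3 of 6, against 29.8%. Every log2FC is female vs. male, and its adjusted p is that of edgeR's quasi-likelihood test, adjusted after Benjamini-Hochberg over 16765 genes.

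*Atpif1* (ENSMUSG00000054428, chr4:132530555-132533659, minus strand) ranged from 35.6 to 298 TPM in females, with a median of 147 TPM. In males it ranged from 43.7 to 183 TPM with a median of 107.8 TPM. The lowest female was BXD34/TyJ, and without it the lowest was BXD14/TyJ, at 66.5 TPM. The ranges overlapped, with the highest females (BXD71/RwwJ, 298 TPM, and KK/HlJ, 287 TPM) above every male library, and KK/HlJ was also the highest male in TPM. In CPM the highest female was SM/J, at 63.55 CPM, and the highest male BXD11/TyJ, at 50.5 CPM. In the matched strains the female mean was 38.7 ± 9.31 CPM and the male mean 27.8 ± 4.93 CPM (SD, n = 59), which gave a log2FC of 0.47 (SE 0.0433, adjusted p = 1.77e-14). The female library was the higher one in 54 of 59 strains. The ratio between the sexes was largest in SWR/J, in which CPM was 2.72-fold higher in the female, and lowest in BXD24/TyJ-Cep290<rd16>/J, at 0.916.

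Set against *Atp5b*, the catalytic subunit that IF1 binds, the difference between the sexes in the inhibitor was wider. The ratio of *Atpif1* to *Atp5b* in TPM averaged 0.139 ± 0.0590 for females and 0.0812 ± 0.0262 for males (SD, n = 59), and it was higher in the female library in 50 of 59 strains. *Atp5b* itself was lower in females, with a log2FC of -0.29 (SE 0.0724, adjusted p = 0.000559). No test was made on the ratio.

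The assembly factor *Atpaf2* (ENSMUSG00000042709, chr11:60400626-60418457, minus strand) ranged from 11.4 to 89.6 TPM in females, with a median of 52.7 TPM. In males it ranged from 43.6 to 100.5 TPM with a median of 69.3 TPM. The strain 129X1/SvJ was the highest in both sexes, and the lowest female besides BXD34/TyJ was AXB12/PgnJ, at 24.99 TPM. The female mean was 50.4 ± 18.6 CPM and the male mean 65.98 ± 17.1 CPM (SD, n = 59), which gave a log2FC of -0.42 (SE 0.0703, adjusted p = 9.42e-07). The male library was the higher one in 46 of 59 strains.

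*Atpaf1* (ENSMUSG00000028710, chr4:115784812-115818828, plus strand) varied less. It ranged from 12.7 to 31.5 TPM in females without the libraries that went against their label, and from 10.5 to 31.3 TPM in males. In BXD34/TyJ it was 0.828 TPM, from 10 counts. CE/J was low in both sexes, at 14.8 TPM in the female and 10.5 TPM in the male, which was the lowest male library. The log2FC was -0.10 (SE 0.0331, adjusted p = 0.00965), with 41 of 59 strains higher in the male library. This small difference depended on the processing, as the adjusted p was 0.0582 with no replicate block (strain left out of the model) and 0.175 on log2(TPM + 1), and the log2FC was 0.01 with library totals in place of TMM.

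Scaling by library totals moved the median log2FC of all genes tested from 0.01 to 0.12, and 7410 genes were then higher and 2774 lower in females, compared with 4759 and 4988 with TMM. Relative to that median, the log2FC of *Atpaf1* was -0.11 with either scaling. For *Atpif1* the difference from the median was 0.46, and for *Atpaf2* -0.43, also with either scaling. For *Atp5g2* it was 0.11 with both.

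Among the subunit c genes, *Atp5g3* (ENSMUSG00000018770, chr2:73908447-73911326, minus strand) was lower in females. It ranged from 90.02 to 853 TPM in females (median 520 TPM) and from 254 to 853 TPM in males (median 558 TPM). The female range without BXD34/TyJ and BXD69/RwwJ began at 256 TPM, so that both sexes spanned nearly the same levels. The log2FC was -0.22 (SE 0.0598, adjusted p = 0.00105), with 45 of 59 strains higher in the male library.

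*Atp5g1* (ENSMUSG00000006057, chr11:96068852-96075670, minus strand) went the other way, with 15.2 to 72.03 TPM in females (median 38.1 TPM) and 10.5 to 47.5 TPM in males (median 32.9 TPM). NZB/BlNJ was the highest female and KK/HlJ the highest male in TPM. In CPM the highest were BXD34/TyJ among libraries labelled female, at 37.8 CPM, and CXB11/HiAJ among males, at 25.4 CPM. The log2FC was 0.20 (SE 0.0401, adjusted p = 1.72e-05), and the female library was the higher one in 47 of 59 strains. All 9 matched AXB/BXA strains were higher in the female, compared with 16 of 26 BXD and 18 of 20 other inbred strains. The 9 include AXB19/PgnJ, AXB19a/PgnJ and AXB19b/PgnJ, which are alike by name, and how far these are independent was not tested. The sex by family interaction did not pass the threshold for *Atp5g1* (p = 0.376 before adjustment).

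*Atp5g2* (ENSMUSG00000062683, chr15:102662864-102672352, minus strand) was the lowest of the 6 when its near copies were not counted, with 5.30 to 22.1 TPM in females (median 13.96 TPM) and 5.56 to 22.7 TPM in males (median 13.1 TPM). Its log2FC was 0.12 (SE 0.0629, adjusted p = 0.092), with 35 of 59 strains higher in the female library. The call changed with several choices. It passed with library totals (log2FC 0.23, adjusted p = 0.00171), on log2(TPM + 1) (0.18, 0.00545), and, in alternatives chosen after seeing the data, without PL/J (0.14, 0.0422) and with the counts of near copies added (0.17, 0.000343). With library totals its gain was that of the median of all genes.

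**Figure D2:**
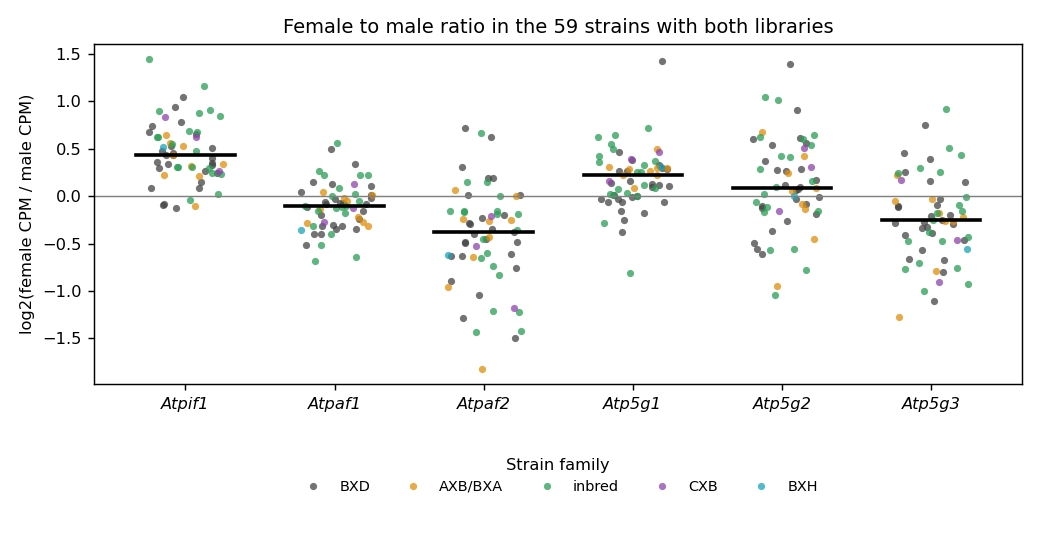
Log2 ratio of female to male CPM for the 6 genes, with 1 point for each of the 59 matched strains coloured by strain family and a bar at the median. Points above 0 are strains with higher expression in the female, as in 54 strains for *Atpif1* and 13 for *Atpaf2*.

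The other genes of the complex were read from the same test. Of 21 further ATP synthase genes, 7 were lower in females and 0 higher by edgeR's quasi-likelihood test, where 29.8% of all genes were lower and 28.4% higher. Their median log2FC was -0.08, against 0.01 over all genes tested. At an unadjusted p under 0.05 the count higher in females was 0 as well, and so were the counts by DESeq2 and limma-voom. With library totals, which raised the median of all genes to 0.12, 4 of them were higher and 2 lower, where 7410 of 16765 genes were higher and 2774 lower, and limma on log2(TPM + 1) called *Atp5s* higher, where 5354 of all genes were higher and 2878 lower. The largest differences were those of *Atp5b* (log2FC -0.29), of *Tmem70* (-0.20, SE 0.0567), an assembly factor that acts on the c ring, and of *Atp5o* (-0.17, SE 0.0667), the stalk subunit OSCP. By the same test *Atp5o* was not called with library totals (log2FC -0.06, adjusted p = 0.24), where the median of all genes was 0.12. With no replicate block it was not called over the matched strains (-0.13, 0.153) or over all libraries (-0.12, 0.123). With no replicate block 2 of the 21 genes were called over the matched strains.

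Sums of cell type markers are given beside these differences for the 65 females and 73 males whose Y-linked genes went with their label. The summed level of 9 mammary epithelial markers (the keratins *Krt5*, *Krt8*, *Krt14* and *Krt18*, the claudins *Cldn3* and *Cldn7*, *Epcam*, *Csn3* and *Wfdc18*) ranged from 80.3 to 2197 CPM in females and from 0.287 to 331 CPM in males, in which 8 of the 9 had a median under 1 CPM. Of the libraries that went against their label, BXD69/RwwJ (labelled female) had 0.887 CPM and NZW/LacJ (labelled male) 483 CPM. BXD34/TyJ, labelled female, had 85.9 CPM, within the range of the females despite its Y-linked expression. The 5 adipocyte markers had median sums of 17805 CPM in females and 23607 CPM in males, and 5 macrophage markers, among them *Adgre1* and *Cd68*, 258 and 343 CPM. Sums of 6 muscle markers had medians of 17.4 and 21.3 CPM, and most of this was *Acta1*, with medians of 12.05 and 17.8 CPM. The part of these cells in the sex differences of the 6 genes was not tested, and in whole tissue fewer cells of a type and less RNA per cell cannot be told apart.

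The near copy of *Atp5g1* was well above 0 in a few strains only. In 129 libraries *Gm10039* was at most 1.49 TPM, and it was listed at 0 in 56 of the females and 62 of the males among them. In the other 12, from 7 strains, it was between 14.3 and 36.6 TPM, with no library in between. These strains were BALB/cJ, CXB6/ByJ, CXB13/HiAJ, SM/J and SJL/J in both sexes, NOD/ShiLtJ with its only library (male) and PL/J in the female alone.

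*Atp5g1* was low in these libraries, which were picked out after their values were seen. It was 15.2 to 24.4 TPM in the 6 females with *Gm10039* and had a median of 38.7 TPM in the other 61 females. In males it was 10.5 to 13.96 TPM in the 6 libraries with *Gm10039* and 20.01 to 47.5 TPM in the other 68. These sets did not overlap in TPM but did in CPM, where they were 8.05 to 10.74 and 10.33 to 25.4, with AXB13/PgnJ the lowest of the others. In females the 2 sets overlapped on both scales. BXD34/TyJ (15.3 TPM), BXD14/TyJ (15.6 TPM) and BXD75/RwwJ (18.1 TPM) were as low without *Gm10039* in TPM, while in CPM only BXD75/RwwJ was (12.93, against 9.92 to 13.02 in the 6), and BXD34/TyJ was the highest female, at 37.8 CPM.

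With both added together, the 12 libraries lay among the others. The sum was 40.4 to 56.6 TPM in the 6 females and 25.5 to 40.4 TPM in the 6 males, compared with medians of 38.7 and 33.9 TPM in the other libraries. *Gm10039* took 55.9% to 69.4% of this sum. In BALB/cJ, for example, the female had 18.96 TPM of *Atp5g1* and 36.6 TPM of *Gm10039*, and the male 13.96 and 24.9 TPM. The mean transcript length behind the *Atp5g1* counts, estimated from the ratio of counts to TPM, was 962 to 1132 bases in the 12 libraries and 739 to 993 bases in the others. How much of the shift lies in the assignment of reads was not tested.

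**Figure D3:**
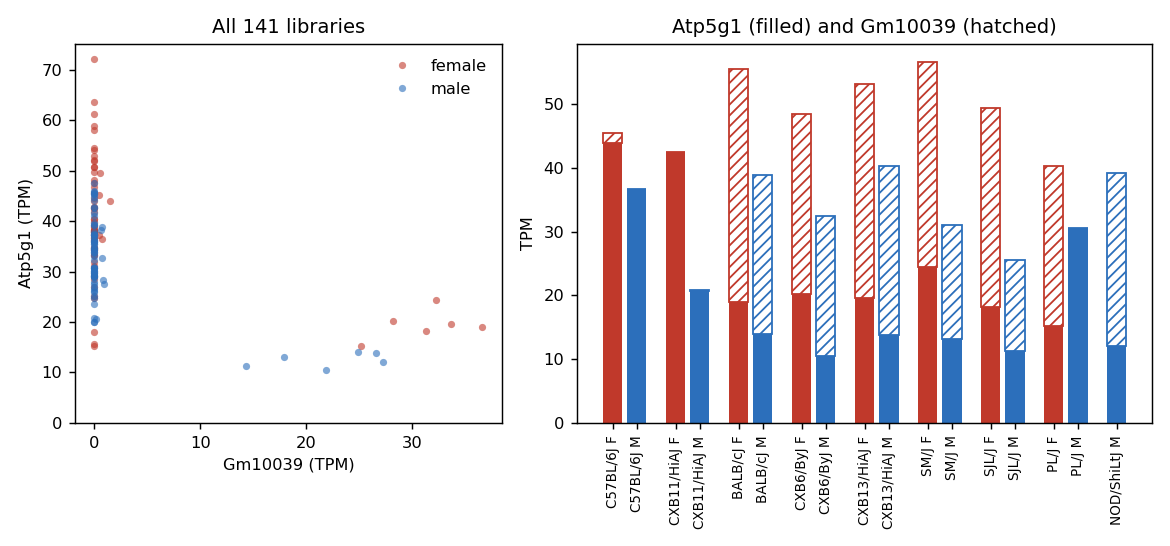
*Atp5g1* against *Gm10039* in TPM for all libraries (left) and both values stacked for 9 strains (right), with filled bars for *Atp5g1*, hatched bars for *Gm10039*, red for female (F) and blue for male (M). The 12 libraries with *Gm10039* at 14.3 TPM or more have low *Atp5g1*, while C57BL/6J and CXB11/HiAJ have nearly all of the sum on *Atp5g1*.

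The CXB family was bred from BALB/c and C57BL/6 mice, and the BALB/cJ and C57BL/6J libraries measured here differed in this respect. Whether the mice used for breeding did was not measured. BALB/cJ, CXB6/ByJ and CXB13/HiAJ had *Gm10039* in both sexes. C57BL/6J had 1.49 TPM in the female and 0 in the male, and CXB11/HiAJ had 0 and 0.172 TPM. PL/J was the one strain whose sexes differed, with 15.2 TPM of *Atp5g1* and 25.1 TPM of *Gm10039* in the female and 30.6 and 0 TPM in the male. *Atpaf1* also differed between these 2 libraries, at 27.4 and 12.4 TPM, which was its highest female to male ratio among the matched strains. The mammary epithelial list, as mean log2 CPM, was at 4.53 in the male and 4.40 in the female, against at most 1.63 in the other males whose Y-linked genes went with their label. Whether both libraries come from the strain on their label was not tested.

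Adding near copies to their parent gene, an alternative chosen after seeing the data, left the sex difference of *Atp5g1* in place, with a log2FC of 0.22 (SE 0.0365, adjusted p = 1.02e-06). It lowered the spread between strains, since the SD over the 59 strains went from 12.4 to 10.7 TPM in females and from 8.83 to 6.60 TPM in males.

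For *Atp5g2* nearly all expression was assigned to a copy. *Gm10175* ranged from 39.1 to 201 TPM in females (median 137.3 TPM) and from 63.3 to 166 TPM in males (median 116.5 TPM). It thus took 74.8% to 96.0% of the sum of *Atp5g2* and its copies, and a median of 90.6%. The other copy, *Gm10231*, was listed at 0 in 66 female and 73 male libraries. The male of BXA24/PgnJ had 9.63 TPM of it and also the highest *Atp5g2* TPM of any library. In CPM its *Atp5g2* was 8.01, below the 12.03 CPM of BXD34/TyJ. As the coding sequences are identical, reads cannot be told apart there, and the value of *Atp5g2* and the sum had medians of 13.6 and 142.3 TPM. The sum averaged 159 ± 26.8 TPM for females and 134.8 ± 22.1 TPM for males (SD, n = 59) and was higher in 52 of 59 female libraries.

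The shares of the 3 genes in the subunit c message depended on this choice. Of the TPM of the 3 genes, *Atp5g3* made up 90.2% ± 2.71 in females and 92.5% ± 1.87 in males (SD, n = 59). *Atp5g1* made up 7.15% ± 2.26 and 5.35% ± 1.44, and *Atp5g2* 2.68% ± 0.924 and 2.15% ± 0.735. With near copies counted, *Atp5g3* stood at 71.2% ± 5.14 in females and 76.7% ± 3.88 in males, and *Atp5g2* with its copies at 22.7% ± 4.15 and 18.6% ± 3.27. Either way *Atp5g3* was the largest share in every library, and its share was lower in the female in 51 of 59 strains, and in 53 of 59 with the copies.

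**Figure D4:**
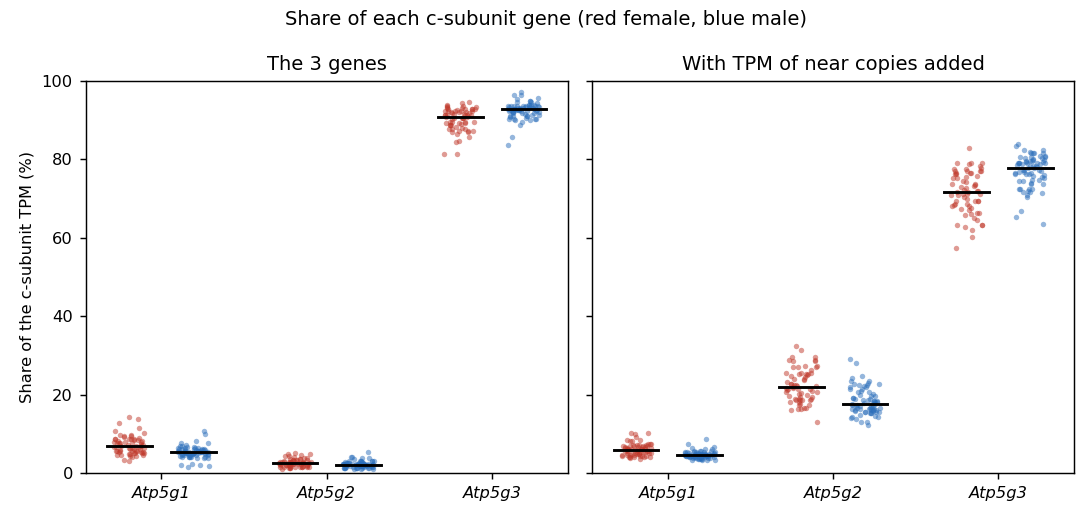
Share of each subunit c gene in the summed TPM, for the 3 genes alone (left) and with the TPM of near copies added to *Atp5g1* and *Atp5g2* (right), with 1 point per library, red for females, blue for males and a bar at the median. The median share of *Atp5g3* over all libraries is 92.2% on the left and 75.7% on the right.

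*Gm14117*, the copy of *Atpaf1*, ranged from 0.387 to 14.6 TPM with a median of 7.04 TPM, and was lower than its parent in every library except that of BXD34/TyJ (1.77 against 0.828 TPM). It was higher in the male library in 43 of 59 strains. With its counts added, the sex difference of *Atpaf1* was larger, with a log2FC of -0.14 (SE 0.0347, adjusted p = 0.000309).

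The comparison of strains asked whether both libraries of a strain share a level beyond the spread between them. All 6 genes passed this F-test, against 71.2% of all genes tested. *Atp5g1* had the smallest adjusted p, 1.53e-07, followed by *Atpaf1* (0.000642), *Atp5g3* (0.00237), *Atpif1* (0.00386), *Atp5g2* (0.0103) and *Atpaf2* (0.017), all from edgeR's quasi-likelihood test. With near copies added, that of *Atp5g1* was 0.000155. Of the 21 other ATP synthase genes, 19 passed.

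The parents of the recombinant inbred families stood within the range of the others for most genes. *Atpif1* was 133.7 TPM in the C57BL/6J female and 191 TPM in the DBA/2J female, and 108.5 and 119.3 TPM in the males. *Atpaf2* was 49.9 and 72.99 TPM in the same females, and 74.96 and 83.97 TPM in the males. A/J was low for *Atpaf1* in TPM, at 18.03 TPM in the female and 19.5 TPM in the male, while BALB/cJ was high, at 30.5 TPM in both. In CPM the females went the other way, at 19.8 CPM in A/J and 18.8 CPM in BALB/cJ. The males kept the order, at 16.9 and 24.6 CPM. DBA/2J had 18.7 TPM of *Atpaf1* in the female and 25.7 TPM in the male, and C57BL/6J 23.1 and 26.5 TPM. C3H/HeJ had 27.3 TPM of *Atpaf1* in the female and 30.2 TPM in the male.

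Female and male levels were also correlated over the 59 matched strains, with p-values adjusted over 16862 genes. Of the 6 genes 5 passed for Pearson's r, against 52.3% of all genes, whose median r was 0.30. For *Atpaf1* Pearson's r was 0.49 (permutation p = 0.00047, adjusted p = 0.00217) and Spearman's rho 0.27 (p = 0.0352, adjusted p = 0.061), with r = 0.21 without CE/J and BXD85/RwwJ, the strains farthest from the female median. Without its farthest strains r of *Atpaf1* fell from 0.55 to 0.33 with library totals and from 0.40 to 0.31 on log2(TPM + 1). It fell from 0.56 to 0.40 when strains with *Gm10039* were left out, an alternative chosen after seeing the data. How far the relation rests on single strains thus differed with the setting. *Atp5g3* had an r of 0.37 (p = 0.00318, adjusted p = 0.00965), a rho of 0.26 (p = 0.0431, adjusted p = 0.0716) and an r of 0.29 without CXB11/HiAJ and BXD40/TyJ. For *Atpif1* these were 0.34 (p = 0.00853, adjusted p = 0.0208), 0.25 (p = 0.0611, adjusted p = 0.0941) and 0.19 without SM/J and KK/HlJ. With library totals *Atpif1* went from 0.36 to 0.34 without its farthest strains, and on log2(TPM + 1) from 0.30 to 0.33, so that its dependence on single strains differed with the scaling.

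*Atp5g2* had an r of 0.34 (p = 0.00826, adjusted p = 0.0203), a rho of 0.29 (p = 0.0286, adjusted p = 0.0521) and 0.33 without BXD49/RwwJ and BXA2/PgnJ. *Atpaf2*, the gene with the largest male excess of the 6, did not pass, with an r of 0.28 (p = 0.0325, adjusted p = 0.0591), a rho of 0.19 (p = 0.149, adjusted p = 0.193) and 0.14 without BXD14/TyJ and CXB11/HiAJ. For *Atp5g1* the strains with *Gm10039* form a cluster of their own, so r was taken over the 53 matched strains without it, where it was 0.46 (p = 0.00048, adjusted p = 0.00235) with a rho of 0.49 (p = 0.00031, adjusted p = 0.00183). It was 0.57 without CXB11/HiAJ and BXD79/RwwJ. The 6 strains with *Gm10039* in either sex are too mixed for a value of their own, since PL/J has it in 1 sex. *Atpaf2* passed as well with library totals (r = 0.31, adjusted p = 0.0365), on log2(TPM + 1) (0.31, 0.0392) and without the strains with *Gm10039* (0.33, 0.034), the last an alternative chosen after seeing the data.

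Differences between strain families were fewer. In females *Atpif1* passed the F-test over BXD, AXB/BXA and other inbred strains (adjusted p = 0.0423), against 12% of all genes, and the other 5 genes did not. Its median was 139.2 TPM in BXD, 148.0 TPM in AXB/BXA and 179 TPM in other inbred females, with overlapping ranges of 35.6 (66.5 without BXD34/TyJ) to 298, 101.7 to 176 and 72.5 to 287 TPM. Other inbred females were higher than BXD females by a log2FC of 0.26 (SE 0.0808, adjusted p = 0.0286), while AXB/BXA differed from BXD by -0.02 (SE 0.109). The call was lost without the libraries that went against their label (adjusted p = 0.0765), without AXB19a/PgnJ and AXB19b/PgnJ (0.0596), with library totals (0.0549) and with limma-voom (0.112).

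In males none of the 6 genes passed, against 7.07% of all genes, with adjusted p from 0.762 to 0.948 (edgeR's quasi-likelihood test). *Atpif1* medians in males were 111.9, 100.4 and 107.8 TPM in the same families. The smallest p before adjustment among the 6 male tests was 0.554, so the count before adjustment was 0 as well, and so it was with limma-voom after adjustment. The sex by family interaction, which compares the sex differences themselves, called 0 of the 6 genes and 0% of the 16778 genes tested, with 678 genes at an unadjusted p under 0.05, none of them a member. limma-voom called 0 too. For *Atpif1*, which passed in females alone, its unadjusted p was 0.141, so the family difference is not shown to differ between the sexes.

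BXH and CXB strains are too few for a test. Among the CXB males, CXB11/HiAJ, the deepest library of all, had the lowest *Atpif1* and *Atp5g2* of any male in TPM, at 43.7 and 5.56 TPM, but not in CPM, at 25.5 and 6.05 CPM. Its *Atp5g3* was 853 TPM in the female, the highest of that sex, and 472 TPM in the male, while in CPM it was the highest of each sex, at 512 and 455 CPM.

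How far the 6 genes move with cell markers was tested among libraries of 1 sex. *Atpif1* rose with the mammary list in females, by a log2FC of 0.12 per log2 unit of the list (SE 0.0202, adjusted p = 3.84e-06), while the other 5 did not pass, against 39.4% of all genes. Without the 2 female libraries that went against their label the slope was 0.21 (adjusted p = 1.15e-09), and *Atpaf2* then passed in the other direction, at -0.17 (adjusted p = 0.0212). Of the 21 other ATP synthase genes 1 passed, with a negative slope. This list was not tested in males, in which most of its genes were near 0.

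*Atpaf2* and *Atp5g3* rose with the adipocyte list in both sexes. In females the slopes were 0.50 (SE 0.0685, adjusted p = 2.27e-09) and 0.46 (SE 0.0564, adjusted p = 7.36e-11), and the other 4 genes did not pass, against 68% of all genes. In males the slopes were 0.60 (SE 0.0733, adjusted p = 4.71e-11) and 0.67 (SE 0.0617, adjusted p = 1.67e-15), again for these 2 of 6, against 69%. *Atp5g1* and *Atpif1* had slopes between -0.07 and 0.09 in the 4 fits, none past the threshold. With library totals *Atpif1* and *Atp5g2* passed in females with negative slopes of -0.24 and -0.25, and *Atp5g2* did in males with -0.31, where the median slope of all genes moved from 0.00 to -0.16 in females and from 0.02 to -0.19 in males.

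**Figure D5:**
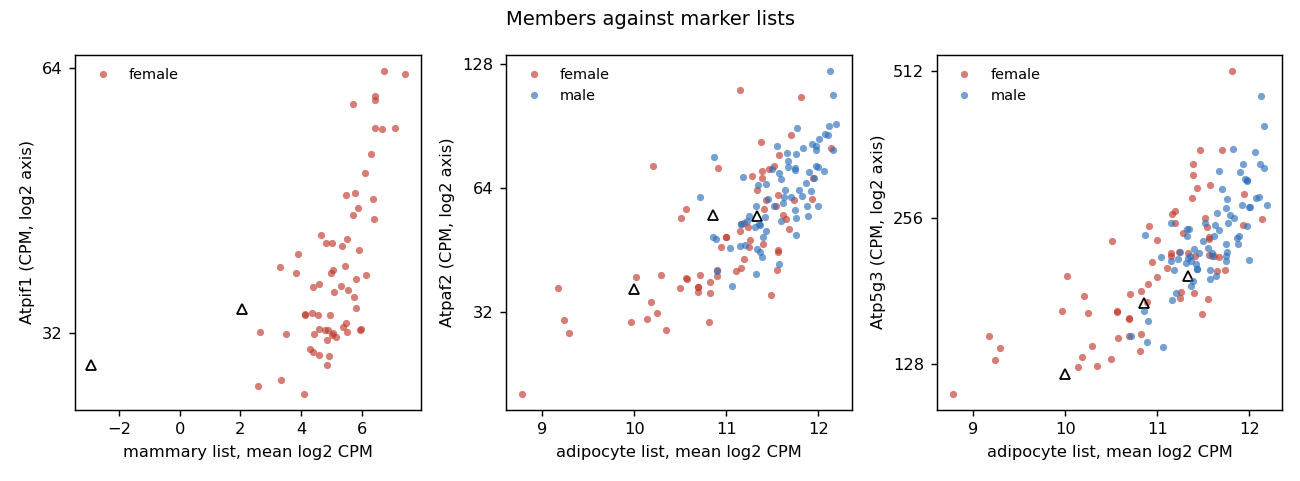
CPM on a log2 axis against the mean log2 CPM of a marker list, for *Atpif1* and the mammary list in females (left), and for *Atpaf2* (middle) and *Atp5g3* (right) and the adipocyte list in both sexes, with 1 point per library and open triangles for libraries that go against their sex label. *Atpif1* rises with the mammary list by 0.12 and *Atp5g3* with the adipocyte list by 0.46 in females and 0.67 in males, each as log2FC per log2 unit.

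Brown and beige adipocytes, marked here by *Ucp1*, *Cidea*, *Elovl3*, *Cox8b*, *Cox7a1* and *Dio2*, make heat by a proton leak. Brown adipocytes are known for little ATP synthase relative to their respiratory chain. The sum of these 6 markers ranged from 7.61 to 3940 CPM in females and from 18.8 to 2438 CPM in males. In females 4 genes rose with the list, against 22.6% of all genes, namely *Atpaf2* (slope 0.16, adjusted p = 5.05e-06), *Atp5g3* (0.10, 0.00552), *Atp5g2* (0.08, 0.0247) and *Atpaf1* (0.07, 0.00482). In males *Atpaf2* alone passed (0.13, adjusted p = 0.000348), against 11.7% of all genes. *Atpif1* and *Atp5g1* had slopes between -0.01 and 0.01 in both sexes, none past the threshold. With library totals *Atpaf1* (0.03, adjusted p = 0.281) and *Atp5g2* (0.05, 0.162) no longer passed in females. Among the other ATP synthase genes 20 of 21 rose with the list in females and 18 of 21 in males.

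Among themselves the 6 genes moved together only in part. After taking out the mean of each sex, the log2 CPM of *Atpaf2* and *Atp5g3* had a Pearson's r of 0.79 over all libraries, while the other 14 pairs lay between -0.21 and 0.29. *Atpif1* and *Atpaf1* had the lowest value, -0.21. Without the 3 libraries that went against their label it was -0.35, the highest of the 14 was 0.35, for *Atpaf1* and *Atpaf2*, and *Atpaf2* and *Atp5g3* stayed at 0.79. Both genes of a pair are read from the same libraries, which differ in depth and tissue composition, so the values are descriptions.

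The genes most like each member were found over 15090 genes of at least 1 CPM by the same measure. *Atpaf2* was nearest to *Mtch2*, an outer mitochondrial membrane protein (r = 0.92), and to *Acads*, the short-chain acyl-CoA dehydrogenase (0.91), with ENSMUSG00000111714 level with *Mtch2*. *Atp5g3* was nearest to *Atp5j*, a stalk subunit of the same complex (0.90), then to *Romo1*, a small mitochondrial membrane protein (0.89), and the proteasome subunit *Psmd4* (0.88). Without the 3 libraries that went against their label *Romo1* came first (0.91), with *Atp5j* (0.89) and *Psmd4* (0.88) at ranks 3 and 10. *Atpif1* was nearest to *Tceal9* (0.73), the tetraspanin *Cd9* (0.68) and the calmodulin gene *Calm2* (0.67).

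*Atp5g1* and *Atp5g2* had no close neighbours. The best for *Atp5g1* over all libraries were the splicing genes *Snrpc* and *Sf3b5* (0.53 each) and *Aimp1* (0.52), and for *Atp5g2* *Cbx1* (0.55) and *Rps12* (0.54). Without the same 3 libraries these values were 0.50 to 0.51, and *Snrpc*, *Sf3b5* and *Aimp1* stood at ranks 8, 5 and 3. For *Atpaf1* the nearest were *Ndufaf6* (0.75), a complex I assembly factor, *Tgds* (0.74) and *Rcc1l* (0.73), but these fell to 0.57, 0.42 and 0.46 without the 3 libraries that went against their label.

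Promoter sequence was read beside these patterns, as *Atpaf2* and *Atp5g3* moved together. RefSeq windows of 300 bases (250 before to 50 after the start, GRCm38.p6) were found for all 6 genes and searched on both strands for 4 motifs. An estrogen-related receptor element (TCAAGGTCA), held by 0.423% of 32851 windows, lay in *Atp5g3* on the opposite strand, 52 bases before the start. An NRF1 motif (0.971% of windows) lay 42 bases before the start of *Atp5g2*, and a YY1 motif (0.633%) began at base 7 after the start of *Atpaf2*. They are printed with the motif in capitals, in the sense of the gene.

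Atp5g3, ERR element, chr2:73911359-73911388: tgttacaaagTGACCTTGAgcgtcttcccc
Atp5g2, NRF1, chr15:102671070-102671099: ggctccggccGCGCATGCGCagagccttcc
Atpaf2, YY1, chr11:60417008-60417037: gtcatgaggAAGATGGCGGCgtgctgagga

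The pair that moved together, *Atpaf2* and *Atp5g3*, shared of the 4 motifs only the CCAAT box, which 37.4% of all windows hold and which was also in *Atpaf1* and *Atp5g1*. None of the 4 motifs is contained in another, and a match is a description of these letters, not of binding. None of the 4 motifs was in the window of *Atpif1*, which is placed at a start -1755 bases from that of the GENCODE gene. Those of *Atpaf2* and *Atp5g2* are placed at starts 1423 and 1305 bases inside the GENCODE gene.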

How the data were processed

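RNA-seq of iWAT was read from 2 deposited tables, 1 of estimated counts and 1 of TPM, for 36558 genes in 141 libraries. The authors made the estimated counts and the TPM with kallisto 0.46.1 (per the submitters' processing notes) against Ensembl transcripts of GRCm38 and summed them per gene with tximport, from stranded paired reads. Symbols came from GENCODE M21. Of the deposited counts 29.8% were not whole (tolerance 0.001), and they were rounded. Totals per library ranged from 6269154 to 78562648 (median 30233245), and the lowest count of a member was 10, for *Atpaf1* in 1 library.

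edgeR 4.0.16 was used for quasi-likelihood tests on counts with filterByExpr and TMM, with p-values adjusted by Benjamini-Hochberg over all genes tested and called under 0.05. The sex test used ~ Strain + Sex over the 59 matched strains, so strain is the block that pairs the libraries. Pairing comes from the strain named on each label. Family tests took families of at least 6 strains within a sex. List slopes used the mean log2 CPM of a list as covariate within a sex. CPM values are TMM-scaled, with a prior count of 2 on the log2 scale. Female to male correlations had 100000 permutations. Near copies are annotated pseudogenes sharing at least 100 words of 31 bases with a member. Alternatives included DESeq2 1.42.0, limma 3.58.1 and log2(TPM + 1), and, chosen after seeing the data, adding near copies, leaving out PL/J, and leaving out strains with the *Atp5g1* copy. The sex test was run on simulated data for 16735 genes, with the same dispersion for every gene. It recovered 98 of 99 genes changed by 0.5 on the log2 scale and 97 of 97 changed by 1, and called 7 unchanged genes. The family test in females, for 16765 genes, recovered 64 of 100 and 100 of 100, and called 13 unchanged genes. Both changes are larger than the sex log2FC of any member, so recovery of differences as small as theirs was not tested.

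The named genes are the members, up to 3 of the other ATP synthase genes called in each direction (the most changed by edgeR with TMM, which called none of them higher), *Atp5b*, marker genes, and for each member the 3 genes with the highest Pearson's r. A gene and a marker list are not reported here. Strains named by rule are the lowest and highest, the parents of the recombinant inbred families and those against their sex label, and others, like *Atp5s*, were named after their values were seen. The members and lists were chosen with earlier results of these data known. Labels give no batch.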

Additional observations from a re-analysis of the deposited data

How the results depend on the processing

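Of 14 alternatives to the sex test, *Atpif1*, *Atpaf2*, *Atp5g1* and *Atp5g3* passed in all 14 with the same sign, with log2FC of 0.44 to 0.58, -0.44 to -0.31, 0.18 to 0.31 and -0.25 to -0.12. *Atpaf1* passed in 10 and *Atp5g2* in 5. With library totals the log2FC of *Atpaf1* was 0.0112 (adjusted p = 0.768, edgeR), where the median of all genes was 0.12. With no replicate block, that is without the pairing by strain, *Atpif1* had 0.49, *Atpaf1* -0.10, *Atpaf2* -0.38, *Atp5g1* 0.22, *Atp5g2* 0.12 and *Atp5g3* -0.20, and 5 of the 6 became 4 called. Of the other ATP synthase genes 2 were called with no replicate block over matched strains and 3 over all libraries, instead of 7. The family call of *Atpif1* in females went from 1 to 0 called with library totals, with limma-voom, without the libraries against their sex label and without AXB19a/PgnJ and AXB19b/PgnJ. The mammary list had 2 called genes instead of 1 without the libraries against their label. With library totals the brown fat list had 2 instead of 4 and the adipocyte list 4 instead of 2 in females. The median share of *Atp5g3* was 75.7% instead of 92.2% with near copies counted. The cause was not tested for any of these. Median counts per library were lowest for *Atp5g2*, at 183, and whether depth limits its test was not tested.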
